A study of Mus musculus with 4 samples.

Results

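The Sim and Npas genes Sim1, Sim2, Npas1, Npas2, Npas3 and Npas4 encode transcription factors with a basic helix-loop-helix and a PAS domain, and their H3K27me3 peaks were examined in mouse erythro-myeloid progenitors (EMPs). The 6 genes were taken by name as a family and were chosen on the measured peaks themselves, since they were already known to carry peaks in these libraries. That each gene had a peak is therefore part of the choice and not a finding, and no test is given. A peak was counted for a gene when it lay in the gene or within 20 kb of it. The 6 genes, of 21938 protein-coding genes in the annotation, held 36 of the 10223 peaks called with 500 EMPs and 22 of the 15282 peaks called with 15000 EMPs. At least 1 such peak was found at 18.6% of all protein-coding genes with 500 EMPs and at 30.1% with 15000 EMPs.

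EMPs are blood progenitors that bud from yolk sac hemogenic endothelium, and H3K27me3 was mapped in them to find genes that may be controlled by Ezh2, the enzyme that places the mark. The cells were sorted as KIT+ CD41+ CD16/32+ cells from C57BL/6 yolk sacs at E10.5. The genotype label gives Ezh2fl/fl; Tie2-Cre+/+ together with the words wild type. Tie2-Cre is active in endothelium and in the blood cells derived from it. The EMPs are treated here as wild type, which is how the study describes them. In CUT&RUN, a nuclease tethered by an antibody cuts the chromatin that carries the target, and the DNA set free is sequenced. There were 4 libraries, an H3K27me3 and an IgG control library from 500 EMPs and the same pair from 15000 EMPs. The peak lists of the 2 H3K27me3 libraries are described here, and the IgG libraries were not analysed.

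Each cell number had 1 H3K27me3 library, hence all differences between them lack a replicate check. Cell number was confounded with the sequencing instrument, with 17 against 16 PCR cycles and with reads of 76 against 59 bp. The stated peak-calling threshold was also stricter for 500 EMPs (0.01 against 0.05), and the effects of these differences cannot be told apart. Peaks were narrower with 500 EMPs, with a median width of 363 bp against 770 bp, and covered 5.95 Mb against 24.0 Mb. By the study's reporting summary, fewer reads were sequenced from 500 EMPs and a smaller part of them aligned, which is confounded with cell number as well. The files held peak positions without heights or read counts, so cover could not be corrected for depth, and a peak was present or absent. All coordinates are 1-based on mm10.

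bHLH-PAS factors of class I, to which the Sim and Npas proteins belong, pair with a class II partner such as Arnt or Arntl to bind DNA. Sim1 is needed for neuroendocrine neurons of the hypothalamus and Sim2 for midline and craniofacial development. Npas1 and Npas3 act in developing and adult neurons, Npas2 is a relative of the clock gene Clock, and Npas4 is switched on in neurons by electrical activity. H3K27me3 is placed by the Polycomb repressive complex that contains Ezh2 and is known to lie over CpG-rich starts of developmental genes that a cell does not use.

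Because CpG content differs widely among these genes, the promoters of Sim1, Npas2 and Npas4 are shown as examples of different CpG content and peak cover. Each begins 250 bp upstream of the start given by RefSeq for GRCm38.p6 and ends 50 bp downstream of it, written 5′ to 3′ on the strand of the gene, and capitals mark each CpG. Of the 6 genes, 5 matched an entry in this promoter table, and Sim2 did not.
Sim1 (chr10:50895401-50895700, plus strand): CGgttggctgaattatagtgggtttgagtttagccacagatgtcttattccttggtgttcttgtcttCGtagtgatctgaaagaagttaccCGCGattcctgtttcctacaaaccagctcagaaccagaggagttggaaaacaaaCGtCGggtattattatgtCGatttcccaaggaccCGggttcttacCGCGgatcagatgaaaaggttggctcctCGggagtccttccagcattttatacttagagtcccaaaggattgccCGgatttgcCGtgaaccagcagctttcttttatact
Npas2 (chr1:39194022-39194321, plus strand): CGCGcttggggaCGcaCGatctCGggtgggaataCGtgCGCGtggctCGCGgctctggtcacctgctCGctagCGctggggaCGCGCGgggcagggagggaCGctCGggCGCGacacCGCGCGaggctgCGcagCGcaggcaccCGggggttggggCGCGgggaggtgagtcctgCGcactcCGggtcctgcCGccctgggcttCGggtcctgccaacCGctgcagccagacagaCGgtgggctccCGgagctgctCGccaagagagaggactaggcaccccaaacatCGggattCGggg
Npas4 (chr19:4989922-4990221, minus strand): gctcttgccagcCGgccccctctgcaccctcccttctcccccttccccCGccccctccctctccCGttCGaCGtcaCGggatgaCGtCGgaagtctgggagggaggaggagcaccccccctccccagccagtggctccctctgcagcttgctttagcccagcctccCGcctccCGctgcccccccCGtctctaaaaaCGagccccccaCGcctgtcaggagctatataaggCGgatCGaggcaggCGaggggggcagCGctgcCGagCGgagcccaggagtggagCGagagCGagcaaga

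The Sim1 promoter held 13 CpGs, more than 62.1% of the 32851 promoters in the table, and all of its 300 bp lay in a peak in both libraries. The Npas2 promoter held 37 CpGs, more than 94.4% of promoters. All of it lay in a peak with 15000 EMPs, but 20 bp of it with 500 EMPs. The Npas4 promoter held 21 CpGs, more than 75.2% of promoters, and no base of it lay in a peak in either library. Its nearest peak was 5 bp away with 15000 EMPs and 491 bp away with 500 EMPs. This RefSeq window lies wholly downstream of the main start that GENCODE gives for Npas4 and that is used in the rest of the text. The promoters of Npas1 (chr7:16476731-16477030), with 20 CpGs, and of Npas3 (chr12:53248182-53248481), with 18 CpGs, were free of peaks with 500 EMPs. With 15000 EMPs, 202 bp of the Npas1 promoter and all of the Npas3 promoter were covered. The order of CpG number was thus not the order of cover. The median over all promoters was 7 CpGs.

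The promoters were searched on both strands for letters that bHLH-PAS dimers are known to bind. TACGTG, the element of Sim-Arnt dimers, occurred in the Npas2 promoter alone among the 5 and in 3.23% of all promoters. Its core ACGTG, which TACGTG contains, occurred 1 time in Npas2 and 1 time in Npas3, and in 19.6% of all promoters. GCGTG, the core of the element of Ahr-Arnt dimers, occurred 1 time each in Npas2 and Npas4 and in 32.4% of promoters. CACGTG, the E-box of Clock and Npas2 dimers, was not in these 5 windows and was in 7.15% of promoters. TGACG, found in cAMP response elements and a part of their full form TGACGTCA, occurred 2 times in Npas4 and in 20.8% of promoters. The full form was in none of the 5 windows and in 1.79% of promoters. These matches describe letters and not bound sites.

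All 6 genes were paired by the authors' table with a peak at most 3 kb away in both libraries. Of protein-coding genes, 9.78% had such a peak with 500 EMPs and 16.8% with 15000 EMPs. The authors' distance is the shortest to either end of a gene, so such a peak need not lie near the start. A 500-EMP peak 39091 bp past the start of Sim2 had a distance of 1095 bp. By distance to the nearest annotated transcript start, all 6 genes also had a peak within 3 kb in both libraries. The start of the main transcript lay inside a peak for 2 genes with 500 EMPs, Sim1 and Sim2, against 1.25% of protein-coding genes. With 15000 EMPs it did for 5 genes, all but Npas1, against 8.66% of protein-coding genes. The genes had been chosen on these peaks, so nothing is read from these counts. Any annotated start of the gene lay in a peak for all 6 genes with 15000 EMPs and for the same 2 genes with 500 EMPs.

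**Figure D1:**
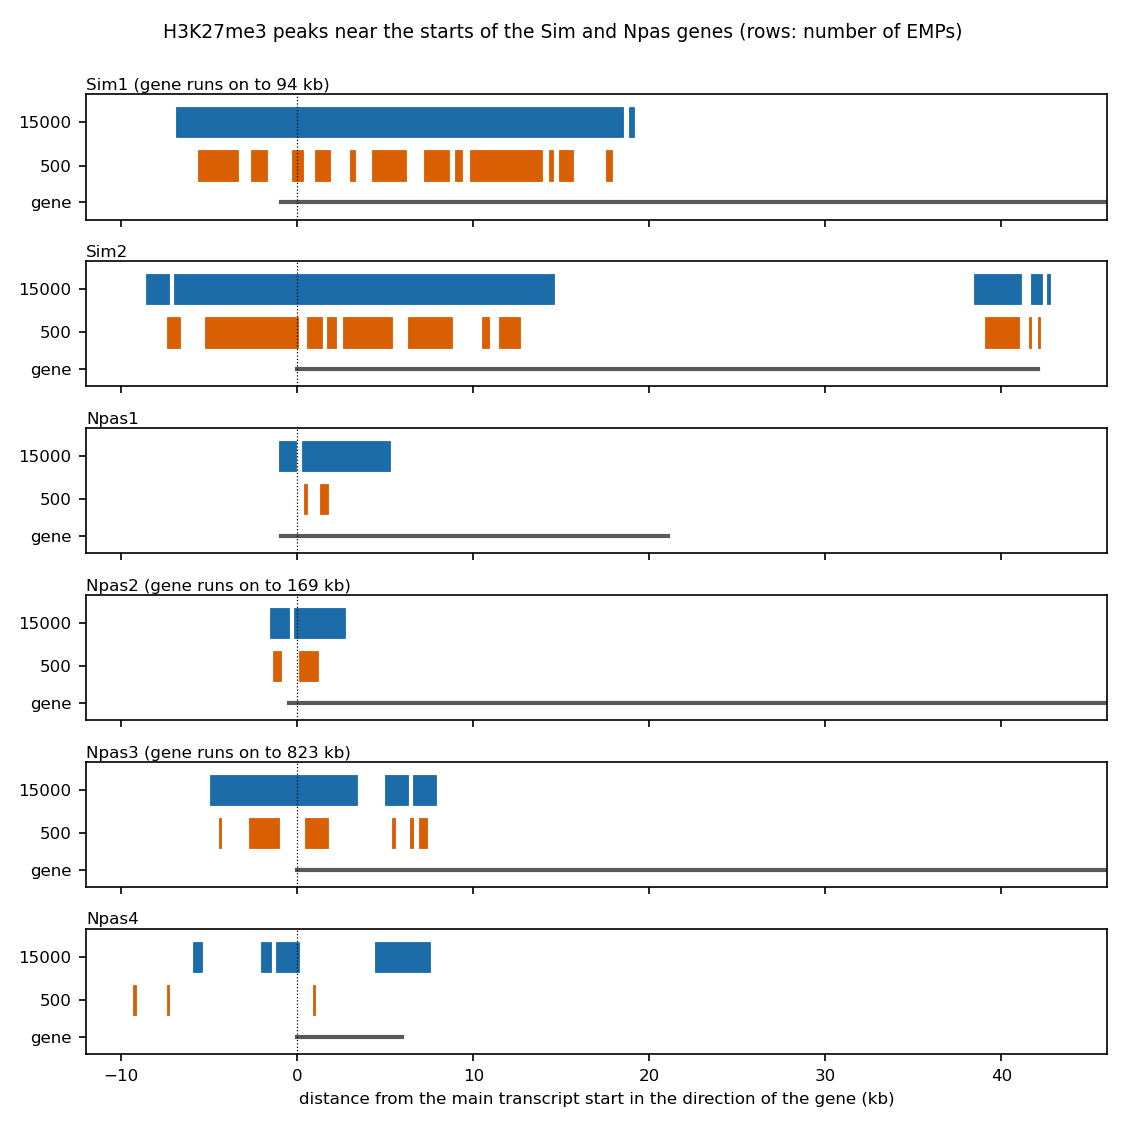
Peaks near the start of each gene. The x axis gives the distance from the main transcript start in kb, read in the direction of the gene; bars are peaks of 15000 EMPs (blue) and of 500 EMPs (orange), and the grey line is the annotated gene. The single wide peaks of 15000 EMPs at Sim1 and Sim2 face 12 and 8 narrower peaks of 500 EMPs, and the 3 peaks of 500 EMPs at Npas4 face none. Peaks farther than 46 kb from a start, at the far ends of Npas2 and Npas3, lie outside the map.

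Sim1 lies on chromosome 10 from 50894754 to 50989152 on the plus strand and has 11 exons in its main transcript, which starts at 50895651. With 15000 EMPs, 1 peak of 25424 bp covered its start (chr10:50888739-50914162), from 6912 bp before to 18511 bp after it. This was the 5th widest of the 15282 peaks of the library. It reached 8 of the 11 exons and 998 bp of coding sequence and ended inside the gene. A further peak of 310 bp followed at 50914494, and both peaks together covered 20.9% of the gene length. With 500 EMPs, 12 peaks of 250 to 4124 bp lay at Sim1, each of them inside the wide peak of the other library. They made up 56.2% of its length, and the gaps between neighbouring pieces were 315 to 1854 bp. The piece over the start measured 625 bp and held 105 bp of coding sequence, whereas the widest piece lay 9791 to 13914 bp into the gene, over 4 exons. The peak calls of the smaller sample were thus in pieces over almost the same stretch. When peaks of each list within 3 kb of each other were joined, the stretch at the Sim1 start was 23550 bp with 500 EMPs and 26065 bp with 15000 EMPs, and the part common to both was 0.904 of the joined length.

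Sim2, on chromosome 16 from 94084931 to 94127032 on the plus strand, also has 11 exons and carried a similar stretch around its start. With 15000 EMPs, a peak of 21612 bp, the 14th widest of the library, covered the start (chr16:94077919-94099530) from 7012 bp before to 14599 bp after it. It reached 3 exons, and a peak of 1325 bp lay just upstream. With 500 EMPs, parts of 8 peaks made up 64.1% of the wide peak, with gaps of 329 to 1700 bp. The piece over the start, 5256 bp, was the only peak wider than 5 kb among the 36 of the family in this library and ran to 13 bp past the start. Most of it thus lay upstream of Sim2, where the long noncoding RNA gene Gm49620, read in the opposite direction, was covered over all of its 2216 bp in both libraries. Joined at 3 kb, the stretch measured 20052 bp with 500 EMPs and 23220 bp with 15000 EMPs, and the common part was 0.864 of the joined length.

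Sim2 also carried peaks at its 3′ end, which Sim1 did not. With 15000 EMPs, a peak of 2663 bp lay from 38460 to 41122 bp past the start over the last exons, with 578 bp of coding sequence. It held 45.4 CpGs per kb. A peak of 1915 bp with 500 EMPs lay inside it and held 54.3 CpGs per kb, where the genome as a whole holds 8.26. A second peak of 626 bp crossed the annotated end of the gene, and another of 191 bp followed 493 bp beyond the end. In the 500-EMP list, 2 peaks of 137 bp lay in the same region, and 1 of them overlapped a peak of the other library.

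Npas3, a gene of 823499 bp on chromosome 12 from 53248677 to 54072175 on the plus strand, had the widest stretch after Sim1 and Sim2. With 15000 EMPs, a peak of 8333 bp covered its start (chr12:53243727-53252059), from 4950 bp before to 3382 bp after it, and ranked 276th of the library in width. Peaks of 1314 and 1315 bp followed in the first part of the gene. With 500 EMPs, 3 peaks made up 37.9% of the wide peak but left the start itself free. The closest of them, 1316 bp, began 442 bp into the gene, and a peak of 1702 bp ended 1046 bp before it. The peaks covered 1.01% of this very long gene with 15000 EMPs and 0.248% with 500 EMPs, and with 500 EMPs all of the cover lay around the start. At the far end of Npas3, 3 more peaks of 1219, 811 and 259 bp were called with 15000 EMPs alone, from 54067113 to 54070053. They lay in the last exon and the intron before it, and the first of them held 594 bp of coding sequence and 63.2 CpGs per kb. The authors' table paired these 3 peaks with Egln3, an oxygen-sensing prolyl hydroxylase gene 108927 to 110649 bp away, and not with Npas3. The antisense gene 1700060O08Rik overlaps this end, and all of the 2289 bp lay in it as well, so the peaks cannot be assigned to either gene by position.

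Npas1 lies on chromosome 7 from 16455721 to 16477728 on the minus strand and encodes a factor known mainly as a repressor in interneurons. With 15000 EMPs, peaks of 4968 bp (chr7:16471540-16476507) and 1008 bp (chr7:16476829-16477836) flanked its main start. They ended 273 bp after and 49 bp before it. An upstream start of the same gene, annotated at 16477728, lay in the second peak. With 500 EMPs, 2 peaks of 445 and 137 bp lay in an intron, both inside the wider peak, and made up 11.7% of it. Cover within 20 kb was 582 bp against 5976 bp, a ratio of 10.3.

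Npas2, on chromosome 1 from 39193731 to 39363236 on the plus strand, forms a circadian dimer with Arntl in place of Clock. Its main start lay in a peak of 2931 bp with 15000 EMPs (chr1:39194020-39196950), and a peak of 1130 bp lay just upstream over the annotated gene boundary. With 500 EMPs, peaks of 1079 and 478 bp lay inside these, and the nearer of them began 90 bp past the start. The stretch was compact, since nothing else was called along the gene with 500 EMPs and 1 peak of 379 bp near its far end with 15000 EMPs. The authors' table paired that peak with Rpl31, a ribosomal protein gene. Cover within 20 kb was 1557 bp against 4440 bp.

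Npas4 is a short gene of 5962 bp on chromosome 19 from 4984355 to 4990316 on the minus strand, and its peaks differed most between the libraries. With 15000 EMPs, a peak of 1279 bp covered its start (chr19:4990227-4991505), from 1189 bp before to 89 bp after it. A wider peak of 3130 bp (chr19:4982775-4985904) lay over the 3′ end of the gene, and peaks of 543 and 477 bp lay upstream. The annotated gene AC124502.5, from 4991357 to 4993113, had 692 bp covered in this library and held all of the 543-bp peak. These 692 bp cannot be assigned to either gene by position. With 500 EMPs, 3 peaks of 137 bp each were called, 1 of them in an intron 886 bp past the start and the others 7285 and 9173 bp upstream of the gene. Not 1 base of these 3 peaks lay in a peak of 15000 EMPs. Cover within 20 kb was 411 bp against 5429 bp, a ratio of 13.2. The width of 137 bp is the smallest in the 500-EMP list and is shared by 1759 of its 10223 peaks.

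To set the 6 genes side by side on an equal length, the covered length was measured in a window of 6001 bp, 3 kb on either side of each main start. With 15000 EMPs the window was covered in full at Sim1, Sim2 and Npas3, as it was at 142 protein-coding genes in all. Npas2 followed with 4061 bp, Npas1 with 3736 bp and Npas4 with 1822 bp. Among the 3733 genes with any cover in this library the median was 2790 bp, with an interquartile range of 1380 to 4400 bp. All genes of the family but Npas4 lay above that median, and Npas4 lay within the range. With 500 EMPs, Sim2 had 4710 bp, a length reached by 23 protein-coding genes. Npas3 had 3018 bp, Sim1 2406 bp, Npas2 1557 bp, Npas1 582 bp and Npas4 137 bp. The median of the 2192 genes with cover was 802 bp, with an interquartile range of 349 to 1660 bp. Sim2, Npas3, Sim1 and Npas2 lay above it and Npas1 and Npas4 below. With 1 library for each cell number, it was not possible to say which neighbours in these orders differ beyond their error. Sim1, Sim2 and Npas3 held the first 3 places and Npas4 the last in both libraries, but this order depended on the window. In 1 kb on either side of the start, Npas2 (1006 bp) stood above Sim1 (625 bp) and Npas3 (559 bp) with 500 EMPs. In 10 kb on either side, Npas2 was last with 15000 EMPs (4061 bp), below Npas4 (5429 bp).

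**Figure D2:**
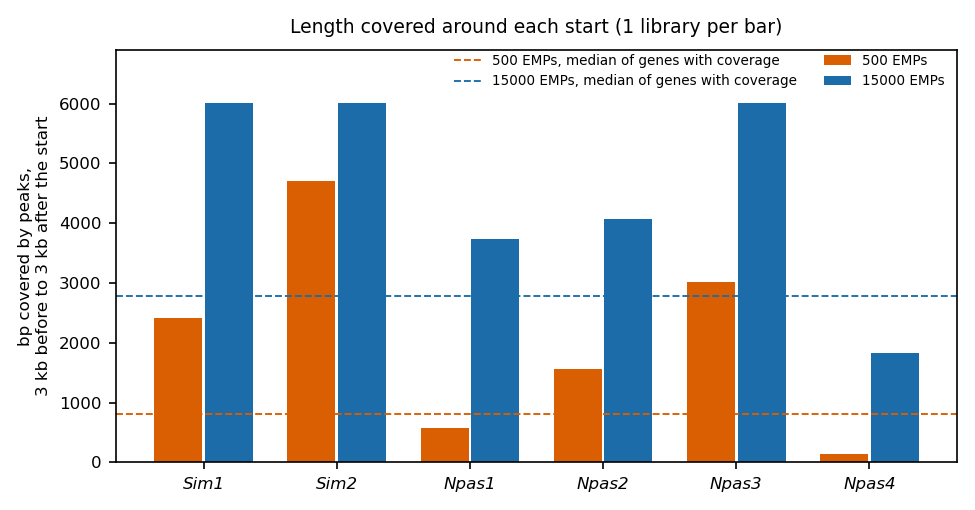
Length covered by peaks within 3 kb of each main start. The y axis gives bp of a window of 6001 bp, each bar is 1 library (orange 500 EMPs, blue 15000 EMPs) without an error bar since there were no replicates, and dashed lines mark the medians of genes with any cover, 802 bp and 2790 bp. The blue bars of Sim1, Sim2 and Npas3 reach the full window, and Npas4 is lowest in both libraries at 137 and 1822 bp.

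The ratio of covered length between the libraries differed along the family. Within 20 kb of the gene, cover was 1.8 times higher with 15000 EMPs at Sim1 (14290 against 25734 bp) and 1.61 times higher at Sim2 (16408 against 26417 bp). It was 2.85 times higher at Npas2 and 3.42 times higher at Npas3 (3879 against 13251 bp). The ratio was above 10 at Npas1 and Npas4, the genes with the least cover in the 500-EMP list. Over the whole lists, cover was 24.0 Mb against 5.95 Mb. In the window of 3 kb around the start the ratio was 6.42 at Npas1 and 1.99 at Npas3, the latter below the 2.49 of Sim1. Over all 6 genes the cover was 37127 bp against 81247 bp. The libraries also differed in depth, alignment and peak threshold, as given above, and the part of these in the ratios was not tested. Sim1 and Sim2 held most of the family's cover in both libraries.

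Of the 36 peaks with 500 EMPs, 31 shared at least 1 bp with a peak of 15000 EMPs. Their share was 86.1% (71.3 to 93.9%, a 95% Wilson interval that covers counting error only), beside 91.2% of all peaks of the list. Of the 22 peaks with 15000 EMPs, 11 overlapped a peak of the other list, a share of 50% (30.7 to 69.3%), beside 32.2% of all peaks. Neighbouring peaks at 1 gene are not independent, so these intervals are too narrow. The 5 peaks without a counterpart, 3 at Npas4 and 1 each at Sim2 and Npas3, were all 137 bp wide. All of the 27 wider peaks of the family had a counterpart, as did 94.8% of the wider peaks of the whole list. Of the 9 peaks of 137 bp, 4 had one, against 74.0% of all peaks of this width. Npas4 had nothing but such peaks with 500 EMPs, and no other gene of the family did.

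The limit of 20 kb fell in a gap between peaks. The farthest peak counted lay 9173 bp from its gene, at Npas4, and the nearest ones not counted were a pair of 541 and 360 bp at 51683 and 52661 bp past the end of Sim2 with 15000 EMPs. The authors' table gave this pair to Sim2 as well, although it lay in the body of Hlcs, a biotin ligase gene that starts beyond it. At the other genes no further peak lay within 77117 bp.

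The CpG content around the starts was measured as observed over expected CpGs in 500 bp on either side. The values of the family ran from above 41.7% of protein-coding genes at Npas4 to above 92.5% at Sim2. The median over protein-coding genes was 0.571. Sim2 had the highest value in the family, 0.915, above 92.5% of genes. Sim1 had 0.833, Npas2 0.799 and Npas3 0.739, whereas Npas1 had 0.611 and Npas4 0.451. Npas4 was the only gene of the family below the median over all genes, and stayed lowest at 0.246 when CpGs were counted in the 250 bp before and 50 bp after each start. Both values were taken at the GENCODE start, and the ratio was not computed at the RefSeq start of Npas4. The order of the others depended on the window, since in that shorter one Npas3 (0.975) and Npas2 (0.936) stood above Sim2 (0.844) and Sim1 (0.821). Neither CpG order was the order of the covered lengths. Npas1 and Npas4 held the last places, however, in both CpG windows and in cover within 3 kb of the start in both libraries. Genes with any cover had a median of 0.679 with 500 EMPs and 0.656 with 15000 EMPs. The peaks of the family had a median of 26.6 CpGs per kb with 500 EMPs and 19.8 with 15000 EMPs, beside 14.9 and 16.2 over all peaks. Single peaks of the family ranged from 0.0 to 77.2 and from 0.0 to 63.2, so some lay below the 8.26 of the genome.

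**Figure D3:**
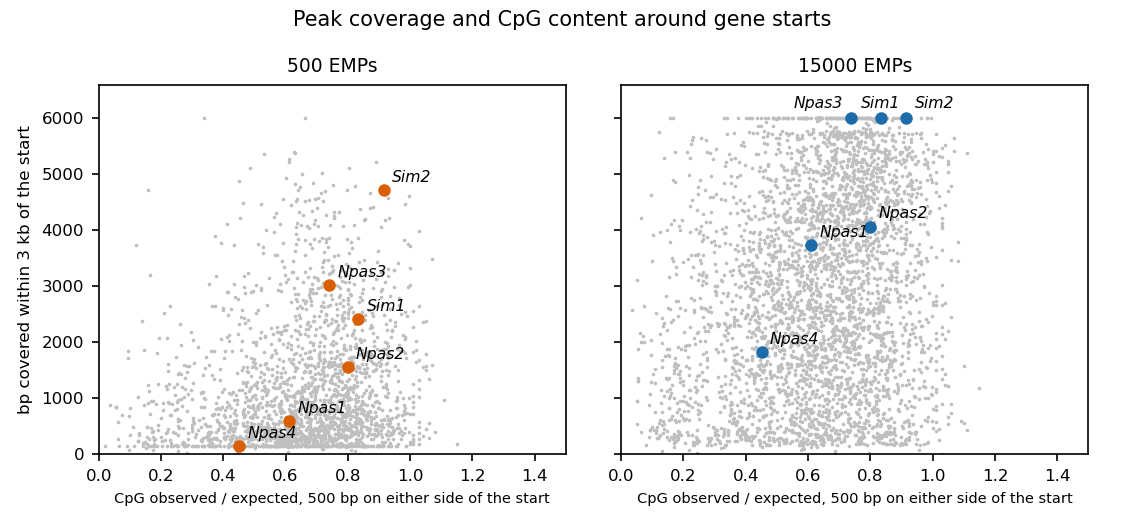
CpG content and peak cover at gene starts. The x axis gives observed over expected CpGs within 500 bp of the main start, the y axis bp covered within 3 kb of it, grey points are protein-coding genes with any cover, and large points are the 6 genes, each 1 library per panel. Sim2 lies farthest to the right at 0.915 and Npas4 farthest to the left at 0.451.

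At the start-covering peaks of Sim1, Sim2 and Npas3 with 15000 EMPs, CpG density was compared between the parts that were also called with 500 EMPs and the rest. At Sim1 the pieces held 19.2 CpGs per kb and the gaps between and beside them 23.8. At Sim2 these values were 28.5 and 35.1, and at Npas3 21.2 and 26.2. Repeats, the stretches in lower case in the genome sequence, took up 8.89% of the pieces and 15.1% of the gaps at Sim1, 12.5% and 20.5% at Sim2, and 12.0% and 13.9% at Npas3. In these 3 peaks the gaps thus had the higher CpG density and the larger share of repeats. Of all 11 peaks of 15000 EMPs at the family that had both parts, the gaps were denser in CpGs in 6 and the pieces in 5, and the gaps had the larger share of repeats in 9. The pieces were denser in the start-covering 2931-bp peak of Npas2, with 32.4 CpGs per kb against 29.1 in the gaps. They were also denser in the 4968-bp peak at Npas1, with 37.7 against 35.6, and in the 2663-bp peak at the 3′ end of Sim2, with 54.3 against 22.7.

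The other genes of the bHLH-PAS family, which were listed by name, were then set beside the Sim and Npas genes. Of 13 such genes, 4 had a peak within 3 kb by the authors' table with 500 EMPs (30.8%) and 5 with 15000 EMPs (38.5%), beside 9.78% and 16.8% of all protein-coding genes. None of the 13 had a peak over its main start in either library, beside 1.25% and 8.66%, and with 13 genes nothing is read from this. Among the 6 other class I genes, only Epas1, the hypoxia factor of endothelium, was called, with 594 bp and 2583 bp covered within 3 kb of the start. Ahr, Ahrr, Hif1a, Hif3a and Clock had no cover in this window in the 2 libraries. Clock, the closest relative of Npas2, thus had no peak near its start where Npas2 had 1557 and 4061 bp.

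Class II genes encode the partners of the Sim and Npas proteins, and 2 of 4 were called with 500 EMPs and 3 with 15000 EMPs, beside 9.78% and 16.8% of all protein-coding genes. Arnt2, the partner of Sim1 in the hypothalamus, had 524 bp covered with 500 EMPs and 4707 bp with 15000 EMPs. Arntl, the circadian partner of Npas2, had 1662 bp and 4099 bp. Arntl2 had 171 bp with 15000 EMPs alone, a single peak of the smallest width in that list, shared by 388 peaks of which 2.32% overlapped a peak of 500 EMPs. Arnt, the widely used partner, had no cover in either library. Among the p160 coactivators, which share the bHLH-PAS domains, Ncoa1 had 1105 bp and 2295 bp, and Ncoa2 and Ncoa3 had none. The Period genes Per1, Per2 and Per3, which hold PAS domains without the helix-loop-helix, had none.

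**Figure D4:**
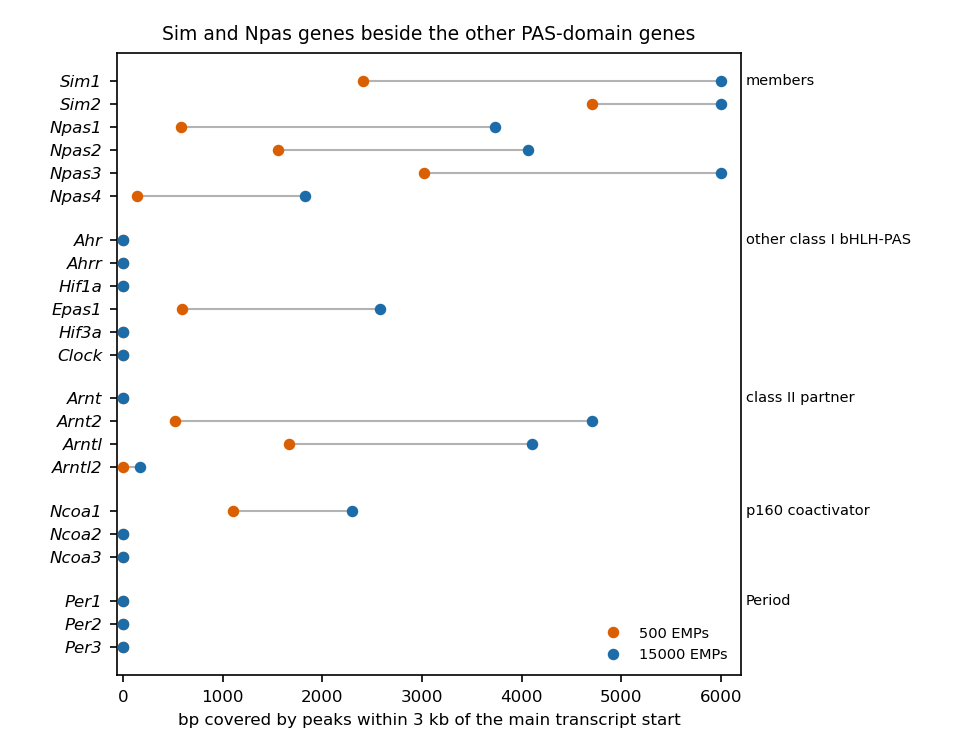
Cover at the Sim and Npas genes beside other genes with PAS domains. The x axis gives bp covered by peaks within 3 kb of the main start, and the points of each gene are the libraries of 500 EMPs (orange) and 15000 EMPs (blue), joined by a line. The 6 genes at the top have cover in both libraries since they were chosen on these peaks, and 11 of the 16 genes below them lie at 0 in both.

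Of 8 genes of the hypothalamic lineage that depends on Sim1, 5 were called with 500 EMPs and 6 with 15000 EMPs, beside the 9.78% and 16.8% of all protein-coding genes. Otp, a homeobox gene that works beside Sim1, had 3851 and 5409 bp covered within 3 kb of its start, and Pou3f2, a factor downstream of Sim1, had 1708 and 4718 bp. The hormone genes Oxt and Avp, which lie next to each other, had 1013 and 3526 bp and 1614 and 2782 bp, and with 15000 EMPs the authors' table gave their common peak of 6688 bp to Oxt and not to Avp. Trh had 410 and 2593 bp. Sst, with 1413 bp, and Mc4r, with 1614 bp, had cover with 15000 EMPs alone, and Crh had none. The median over these 8 genes was 712 bp with 500 EMPs and 2690 bp with 15000 EMPs.

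Of 7 genes induced by neuronal activity with or by Npas4, 3 were called with 500 EMPs and 6 with 15000 EMPs, beside the same 9.78% and 16.8%. Bdnf, a growth factor gene and a known target of Npas4, had 757 and 4587 bp covered, Arc 137 and 3594 bp, and Nptx2 1023 and 4118 bp. Fos, Fosb and Egr1, immediate early genes of many cell types, had no cover with 500 EMPs and 1256, 345 and 540 bp with 15000 EMPs. Junb had none. The median over the 7 genes was 0 bp and 1260 bp. Arc, like Npas4, had a single peak of 137 bp within 3 kb with 500 EMPs.

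The labelled cell type was checked against marker genes, as far as a repressive mark allows. None of 8 EMP and blood genes (Kit, Itga2b, Fcgr3, Ptprc, Runx1, Gata1, Spi1 and Myb) was called or had cover near its start (3 kb on either side) with 500 or 15000 EMPs. Of 5 endothelial genes, Kdr alone was called, with 274 bp and with 15000 EMPs alone. All 4 neural genes were called in both libraries, with a median cover of 3850 and 5410 bp, and 3 of 4 mesenchymal genes were. Over all protein-coding genes 9.78% and 16.8% were called, so the counts for blood and endothelial genes are near the background and say little about the identity of the cells. Peaks show where the mark lay and not which genes were expressed.

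The genes whose pattern was most like that of each Sim or Npas gene were sought by the shared covered length over all covered length (Jaccard index) in 10 kb on either side of the start, read in the gene's direction, over both libraries. Sim2 was most like the homeobox genes Lhx1 (0.804), Evx1 (0.791) and Hmx1 (0.773). Sim1 was most like Prdm13 (0.76), Wt1 (0.743) and Pax7 (0.743). With 15000 EMPs, these 6 genes had 16735 to 18569 bp of the 20-kb window covered, where Sim1 had 16913 bp and Sim2 18338 bp. Npas3 was most like Kcnh3 (0.629), Col2a1 (0.623) and Barx2 (0.62), which encode a potassium channel, a cartilage collagen and a homeobox factor. Npas2 was most like Wnt2b (0.795), Esyt3 (0.734) and Chrm2 (0.727), each with a short stretch near the start. Npas4 had no close likeness, with Heyl (0.565), Myt1l (0.484) and Lrriq4 (0.467) in the first places. Npas1 had no peak over its main start and was left out of this search by rule. Among the 6 genes themselves, Sim1 and Sim2 were the most alike pair at 0.7, Sim1 and Npas3 followed at 0.471, and Npas2 and Npas4 were the least alike at 0.122.

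The cover at the 6 genes did not run on to the starts of the closest protein-coding neighbours. The closest protein-coding gene on each side of each gene was Ascc3 and Gm49339 for Sim1, Cldn14 and Hlcs for Sim2, Tmem160 and Arhgap35 for Npas1, Pdcl3 and Rpl31 for Npas2, Akap6 and Egln3 for Npas3, and Mrpl11 and Slc29a2 for Npas4. All 12 neighbours had 0 bp covered within 3 kb of their main start and were not called in either library. The shortest distance from such a start to any peak was 6312 bp, at Rpl31 with 15000 EMPs. Tmem160 lies 226 bp beyond the end of Npas1 and its start was 18761 bp from the nearest peak.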

How the data were processed

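H3K27me3 CUT&RUN peak lists of 500 and 15000 EMPs (1 library each) were used. The authors aligned reads to mm10 (GRCm38) with Bowtie2 2.2.1 and called broad peaks with MACS2 2.1.2 in each library. The submitters' processing notes also name SAMtools 1.9 and deepTools 3.5.1. In the authors' listing of commands the library names under the p-value thresholds are exchanged between cell numbers, and the lists were taken as labelled. The deposited lists give peak positions, a gene and a distance per peak, without a score or count, so depth could not be corrected for. The number and width of peaks can depend on joining and threshold as well as on depth, and these parts could not be told apart.

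The members and all gene lists were chosen with earlier results of these data known. Gene positions were from GENCODE vM21, and the main transcript was the best ranked by APPRIS, then the longest. Overlap meant at least 1 bp. CpGs were counted in the GRCm38 sequence. Likeness left out gene pairs whose windows shared bases. Named were the 6 genes, listed genes with a peak (with values) or without one (by name), the closest neighbours and the 3 most alike genes. Calculations used Python 3.11.15, numpy 2.4.6 and scipy 1.17.1, figures matplotlib 3.10.9, and only the interval steps were tested on simulated peaks. No test between cell numbers was possible. Alternatives changed distance limits, windows, overlap, joining and narrow peaks.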

Additional observations from a re-analysis of the deposited data

How the results depend on the processing

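No replicate could be left out, and no paired analysis was possible because each group had 1 library. Of 174 alternatives, 128 moved a value by at most 1.5 times or, for a share, kept it within its interval, and 46 moved it further, 29 of these for a value of a single gene. All 6 genes kept a peak within 3 kb with 15000 EMPs under every distance limit and width limit tried. With 500 EMPs, 5 did at a limit of 1 kb, 5 without peaks of the smallest width, where Npas4 was lost, and 4 without peaks narrower than 500 bp. With 500 EMPs, the 36 peaks became 18 when joined within 1 kb, 9 when joined within 3 kb and 18 without those narrower than 500 bp. Joined within 3 kb, 4 starts and not 2 lay in a peak, the cover within 20 kb was 60934 bp, and that within 3 kb of the 6 starts 20772 bp, where it was 12410 bp as deposited. Windows of 1 and 10 kb on either side gave 3903 and 27949 bp with 500 EMPs, and 10524 and 61679 bp, where the main window gave 27622 bp, with 15000 EMPs. With 15000 EMPs, the 22 peaks became 12 and 11 when joined within 1 and 3 kb. Of the 500-EMP peaks, 100% had a counterpart without the smallest peaks or those narrower than 500 bp, and 2.78% did when the overlap had to reach 50% of both peaks. Of the 15000-EMP peaks, 13.6% did at an overlap of 50% of the peak and 4.55% at 50% of both. Peak widths differ between the lists, so an overlap limit on both removes most pairs by construction. Fewer aligned reads were behind the 500-EMP list and the files give no counts, so a missing peak with 500 EMPs is not evidence that the mark was absent.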
